A study of Sus scrofa with 2 samples.

Results

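The pyruvate dehydrogenase complex (PDC) and the enzymes that switch it were followed in the longissimus dorsi muscle (LM) of Shaziling and Yorkshire pigs. The complex oxidizes pyruvate to acetyl-CoA in the mitochondrial matrix and so joins glycolysis to the TCA cycle. Its E1 component (PDHA1 and PDHB) decarboxylates pyruvate, its E2 component (DLAT) passes the acetyl group to coenzyme A on a lipoyl arm, its E3 component (DLD) reoxidizes that arm, and PDHX anchors E3 to the E2 core. Pyruvate dehydrogenase kinases (PDK1 to PDK4) phosphorylate E1 and turn the complex off, and the phosphatases PDP1 and PDP2 turn it on again. In skeletal muscle PDK4 is known as the kinase that is induced in fasting, when fatty acids are used in place of glucose.

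The members were the unigenes (assembled transcript sequences) whose best match in the nr protein database carried a RefSeq protein accession of a pig gene of this group. Of the 11 genes searched, 6 had such a unigene, among 4484 gene symbols with a unigene in the deposited table, and each of the 6 had 1 unigene. They were the subunits PDHB, DLAT and PDHX, the kinases PDK3 and PDK4, and the phosphatase PDP1. The other 5 genes (PDHA1, DLD, PDK1, PDK2 and PDP2) were not analysed here. The deposited table holds 65535 unigenes, fewer than the study assembled. Unigenes of these 5 genes, or further unigenes of the members, may be among those left out. No nucleotide or protein sequence of the unigenes was used.

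Polyadenylated RNA was sequenced from the LM of 3 male Yorkshire pigs and 3 male Shaziling pigs, full-sibs within each breed, killed at 25 days of age. No treatment is named in the sample records or the methods. Yorkshire is a fast-growing lean breed and Shaziling an indigenous Chinese breed. The deposited table holds 1 column of reads and 1 column of RPKM values (reads scaled for unigene length and library size) per breed, so there are no replicates. How the 3 pigs of a breed were combined is not given in the sources used here, and the reads of a breed are called its library. With 1 family per breed, breed and family cannot be told apart. The titles and the column names gave the breeds, and the class named in another field of the sample records (indigenous or lean-type) stands on the opposite samples. If that class were right, each direction between the breeds given here would be reversed.

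The libraries held 29537057 (Yorkshire) and 20575805 (Shaziling) reads in the table, which was 87.0% and 72.7% of the library totals behind the RPKM values. Together, 2 mitochondrial unigenes took 46.4% of the library total of Yorkshire and 11.8% of that of Shaziling. These 2, called the mitochondrial unigenes below, were the most abundant with a mitochondrial name in the study's list of differentially expressed genes (DEGs). They were therefore chosen among unigenes that differ between the libraries. Mitochondrial unigenes outside that list were not sought. Of the gene symbols, 4030 reached an RPKM of 1 in at least 1 library and were tested. The median of their log2 ratios (Shaziling over Yorkshire) was 0.67. Ratios of a gene between the libraries therefore depended on the scaling, whereas the rank of a ratio among genes and the ratio of a gene to another within a library did not. Of the muscle markers examined, 2 of 10 had a unigene matched by a pig accession (DES and a fragment of MYLPF). Their summed RPKM was 1062 in Yorkshire and 3706 in Shaziling. Of the blood cell markers, 2 of 5 passed an RPKM of 1 (HBB and ALAS2), with a summed RPKM of 18.9 and 212. The sums were 27.5 and 52.1 for adipocyte markers (2 of 6), 35.2 and 58.5 for endothelial markers (3 of 5), 0.619 and 3.89 for immune markers (1 of 5, CSF1R), and 721 and 685 for fibroblast markers (4 of 6). The part of these cell types in the ratios below was not tested. In whole muscle, fewer cells of a type and less RNA per cell cannot be told apart.

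Intervals are exact 95% intervals on the reads. They treat reads as independent, cover counting error only and say nothing of the spread between pigs. No test between breeds was possible.

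PDK4 dominated the group in both breeds. The unigene of this kinase (contig_479, 3737 bp) had 71012 reads in Yorkshire and 57309 in Shaziling, and its RPKM was 560 and 542. It held 90.3% of the reads of the 6 unigenes in Yorkshire and 91.5% in Shaziling. Its mean RPKM was above that of 99.7% of the gene symbols tested. PDHB, the beta chain of E1, came next in level in both libraries. Its unigene (contig_3225, 1615 bp) had 3156 reads in Yorkshire and 2477 in Shaziling, with an RPKM of 57.6 and 54.2. The level of PDK4 per length was thus 9.72 times that of PDHB in Yorkshire and 9.999 times in Shaziling.

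PDHX, the E3-binding protein, had a lower level than PDHB. Its unigene (contig_814, 2328 bp) reached 26.1 RPKM (95% interval 25.0 to 27.2) in the Yorkshire library and 19.0 RPKM (17.9 to 20.1) in the other. For PDP1, the phosphatase that calcium stimulates, contig_399 (4890 bp) had 2175 reads (13.1 RPKM, 12.6 to 13.7) in Yorkshire and 1271 reads (9.18 RPKM, 8.68 to 9.70) in Shaziling. PDHX and PDP1 were both higher in the Yorkshire library, and their intervals did not overlap between the libraries. The same held for 12.4% of the gene symbols tested, while 57.1% had intervals without overlap and a higher level in Shaziling. PDK3, the other kinase with a matched unigene, was the lowest member. Its unigene (contig_2880, 1834 bp) had 184 reads in Yorkshire (2.96 RPKM, 2.54 to 3.41) and 131 in Shaziling (2.52 RPKM, 2.11 to 2.99), and these intervals overlapped.

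DLAT, the E2 subunit, was matched only by a fragment in the deposited table. Its unigene (contig_7046) had 222 bp, which was 11.4% of the coding length of the matched protein, whereas the unigenes of the other 5 members were longer than the coding length of theirs. It had 36 reads in Yorkshire and 172 in Shaziling, and its RPKM was 4.78 (3.35 to 6.61) and 27.4 (23.4 to 31.8). The fragment was higher in Shaziling, opposite to the other members. The level of a fragment need not be that of the whole transcript, and the rest of the DLAT transcript was not analysed here.

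In Yorkshire the order of the levels per length was PDK4, PDHB, PDHX, PDP1, DLAT and PDK3. In this order the intervals of DLAT and PDK3 overlapped, and those of the other neighbours did not. In Shaziling the order was PDK4, PDHB, DLAT, PDHX, PDP1 and PDK3, and no intervals of neighbours overlapped. The place of the DLAT fragment was the only difference between the orders.

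**Figure D1:**
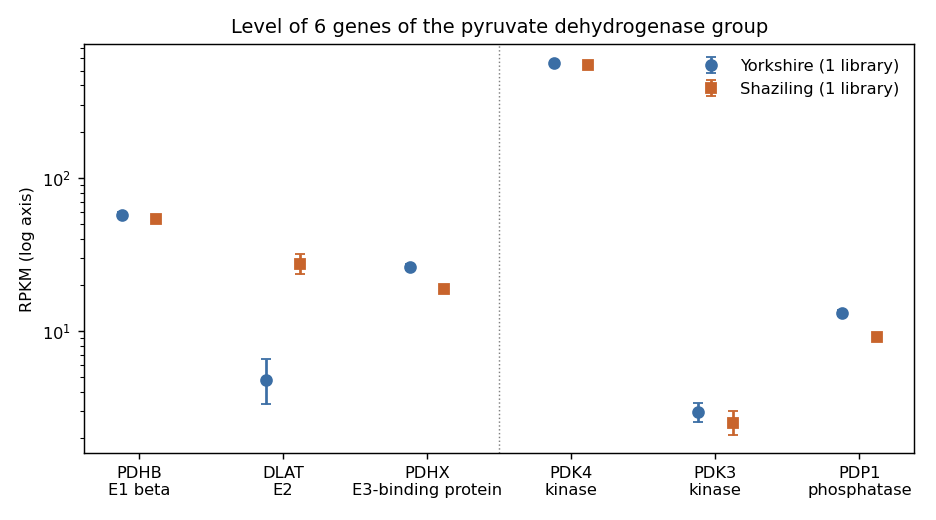
RPKM (log axis) of the 3 subunits (left of the dotted line) and the 3 regulators in the Yorkshire library (circles) and the Shaziling library (squares), with exact 95% intervals on the reads as bars. PDK4 stands near 550 in both libraries, and the DLAT fragment is the only member that is higher in Shaziling.

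Between the breeds, 5 of the 6 members had a lower RPKM in the Shaziling library, where a ratio below 1 was found for 24.4% of the gene symbols tested. The ratio of Shaziling to Yorkshire was 0.968 (95% interval 0.957 to 0.979) for PDK4 and 0.941 (0.893 to 0.992) for PDHB. It was 0.728 (0.678 to 0.781) for PDHX and 0.701 (0.653 to 0.751) for PDP1. These 4 intervals lay below 1, although those of PDK4 and PDHB did so by little, and so did the intervals of 15.1% of the gene symbols tested. For PDK3 the ratio was 0.854 with an interval of 0.677 to 1.07, which included 1 with the values as deposited. The DLAT fragment had a ratio of 5.73 (3.98 to 8.45).

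A ratio of 2 or more was taken as the call. This is the fold used by the study, but its cut-off on the false discovery rate was not applied. By this call, 1 of the 6 members (DLAT) was higher in Shaziling and 0 were higher in Yorkshire. Over all gene symbols tested, 39.1% were called higher in Shaziling and 4.04% higher in Yorkshire. A call in favor of Shaziling was thus common in this pair of libraries, and among the 103 gene symbols represented by a unigene under 300 bp, as DLAT is, it was made for 59.2%. Among all tested unigenes under 300 bp, with or without a symbol, it was made for 41.8% of 6118. The share was 39.6% over tested unigenes of any length.

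Ranked among the 4030 gene symbols, the 5 longer members lay in the lower part of the ratios. Of the gene symbols, 10.5% had a lower ratio than PDP1, 11.7% a lower ratio than PDHX, 17.4% than PDK3, 21.4% than PDHB and 22.5% than PDK4, whereas 91.5% had a lower ratio than the DLAT fragment. Measured from the median gene symbol, the log2 ratio was -1.19 for PDP1, -1.13 for PDHX, -0.90 for PDK3, -0.76 for PDHB and -0.72 for PDK4, and it was 1.84 for DLAT. These differences from the median are the same under each scaling. The median itself differed with unigene length. Among gene symbols at an RPKM of 10 or more, the median log2 ratio was 0.62 over all lengths. It was 0.46 for unigenes of 2000 bp or longer, as those of PDHX, PDK4 and PDP1 are. From 1000 to 2000 bp it was 0.73, and from 400 to 1000 bp 0.90. The regulators were not set apart from the subunits by their rank, since PDK4 stood beside PDHB and PDP1 beside PDHX.

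**Figure D2:**
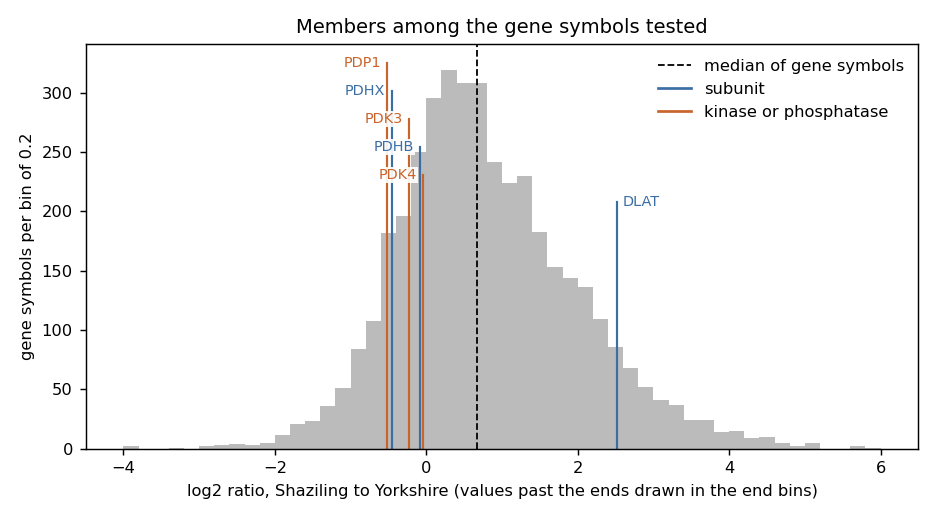
Number of gene symbols per bin of the log2 ratio of Shaziling to Yorkshire (grey bars, bin width 0.2), with the median (dashed line) and the members marked as subunits (blue lines) or regulators (orange lines); the height of the lines has no meaning. Of the 6 members, 5 lie left of the median of 0.67, between -0.51 and -0.05, and DLAT lies at 2.52.

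The other scalings each multiplied the ratios by a factor below 1 (0.608 to 0.783). Members with a ratio below 1 as deposited could therefore not change direction, and only the DLAT fragment could have. After scaling to equal RPKM sums, to a median log2 ratio of 0 among abundant unigenes, by TMM, or to library totals without the 2 mitochondrial unigenes, the ratio of PDHX was between 0.442 and 0.570, and that of PDP1 between 0.426 and 0.549. PDK4 was between 0.588 and 0.758, and PDHB between 0.572 and 0.737. PDK3 was between 0.519 (95% interval 0.412 to 0.653) and 0.668 (0.530 to 0.841), and its interval lay below 1 under each of these 4 scalings, so whether its interval included 1 depended on the scaling. The DLAT fragment stayed above 2, with 3.48 as its lowest value. Without the mitochondrial unigenes in the totals, PDHX and PDP1 passed a ratio of 2 in favor of Yorkshire, as did 16.5% of all gene symbols under that scaling, while 21% passed it in favor of Shaziling.

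**Figure D3:**
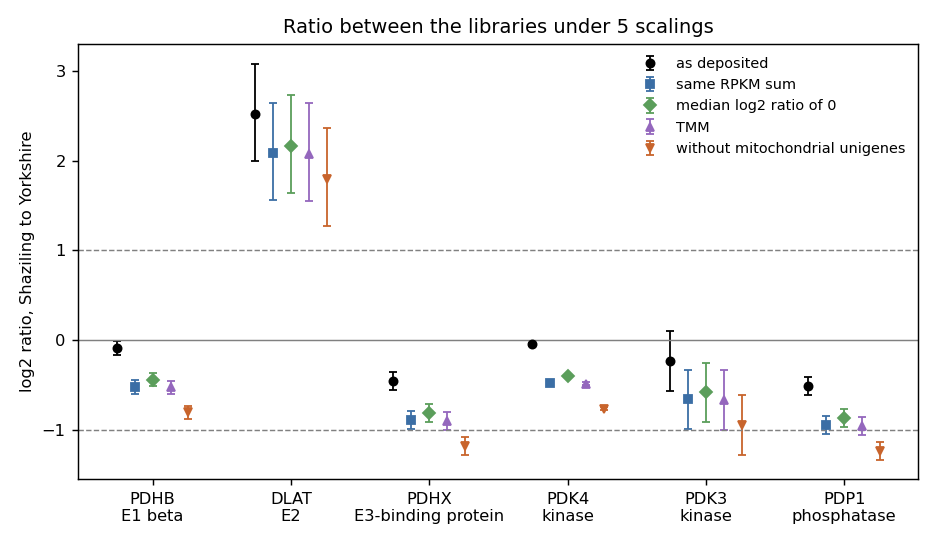
The log2 ratio of Shaziling to Yorkshire for each member with the values as deposited and under 4 other scalings, with exact 95% intervals on the reads as bars and dashed lines at a ratio of 2. PDHX and PDP1 lie below 0 under all 5 scalings and below -1 only with totals that leave out the mitochondrial unigenes.

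The subunits and the regulators were next compared as classes. The median log2 ratio was -0.09 over the 3 subunits (from -0.46 to 2.52) and -0.23 over the 3 regulators (from -0.51 to -0.05), against 0.67 over the gene symbols. The difference of -0.14 between the classes was smaller than the range within either of them. Leaving out the DLAT fragment, a choice made with its value known, gave a median of -0.27 over the other 2 subunits. The difference between the classes was then 0.04, so its sign rested on the fragment.

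Gene-to-gene ratios within a library carry no scaling, and they were used to set regulators against E1. PDHA1, the phosphorylated chain, had been planned as the reference and had no matched unigene, so PDHB was used. The ratio of PDK4 to PDHB was 1.03 times as high in Shaziling as in Yorkshire (95% interval 0.974 to 1.09), and that of PDK3 to PDHB 0.907 times (0.715 to 1.15). For neither kinase was a change relative to E1 beta detectable at this depth, and the interval is the narrower for PDK4. PDP1 behaved otherwise. Its level was 0.228 times that of PDHB in Yorkshire and 0.169 times in Shaziling, a change of 0.745 times (0.682 to 0.813). The balance of PDK4 over PDP1 was accordingly 42.7 in Yorkshire and 59.0 in Shaziling, and this ratio was 1.38 times (1.29 to 1.48) as high in Shaziling. For PDK3 over PDP1 the same comparison gave 1.22 with an interval that included 1 (0.956 to 1.55).

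Among the subunits, the level of PDHX was 0.453 times that of PDHB in Yorkshire and 0.350 times in Shaziling, a change of 0.773 times (95% interval 0.707 to 0.845). PDHX and the DLAT fragment parted furthest. PDHX was 5.46 times the fragment in Yorkshire and 0.693 times in Shaziling, and the change was 0.127 times (0.0855 to 0.184). This comparison rests on the 36 Yorkshire reads of the fragment.

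Another unigene of the table was named for PDK4 by its UniProt entry in the list of DEGs of the study. It is not a member by the rule, because its nr match carries no accession of the pig gene. Contig_1180 (2460 bp) had 5833 reads in Yorkshire and 1286 in Shaziling, at 69.8 and 18.5 RPKM. Its ratio of Shaziling to Yorkshire was 0.264 (95% interval 0.249 to 0.281), and 0.546% of the gene symbols tested had a lower ratio. Relative to contig_479, the unigene with the pig accession, it was 0.273 times (0.257 to 0.291) as abundant in Shaziling as in Yorkshire. The list of DEGs was chosen by the study for differences between these libraries, so the finding of a difference there is not independent, and PDK4 unigenes without a difference could not be found by this route. Contig_1180 held 7.59% of the reads of both PDK4 unigenes in Yorkshire and 2.19% in Shaziling. With the reads of both added, PDK4 had a ratio of 0.915 (0.905 to 0.924), and its change relative to PDHB was 0.972 times (0.920 to 1.03). Its change relative to PDP1 was then 1.30 times (1.22 to 1.40). Unigenes of near-identical sequence can share reads, so the division between the PDK4 unigenes is uncertain.

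PDC has sister complexes that oxidize other 2-oxo acids and use the same E3. In these complexes OGDH is the E1 for 2-oxoglutarate, DLST its E2, BCKDHA the E1 alpha chain for branched-chain 2-oxo acids, and BCKDK the kinase that inhibits the latter. With the values as deposited these genes were all higher in Shaziling. OGDH (27.7 and 61.4 RPKM in Yorkshire and Shaziling) had a ratio of 2.22 (95% interval 2.13 to 2.31), BCKDHA (7.06 and 14.8) of 2.09 (1.86 to 2.36), BCKDK (9.79 and 30.5) of 3.12 (2.84 to 3.43) and DLST (27.0 and 37.1) of 1.38 (1.31 to 1.45). The direction of DLST turned with the scaling, since its ratio was 1.02 (0.968 to 1.08) with equal RPKM sums and 0.837 (0.793 to 0.883) with totals without the mitochondrial unigenes. Of these 4 genes, 3 passed a ratio of 2 with the values as deposited, as 39.1% of all gene symbols did, and 1 (BCKDK) once both libraries had the same RPKM sum. Under that scaling 27.2% of all gene symbols passed in favor of Shaziling and 9.35% in favor of Yorkshire.

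Members were also set beside sister genes within libraries. These pairs were chosen after their values were seen, so they describe the same ratios without the scaling and are no independent comparison. The level of PDHB was 2.08 times that of OGDH in Yorkshire and 0.882 times in Shaziling, a change of 0.424 times (95% interval 0.397 to 0.453). Relative to BCKDHA, PDHB changed 0.449 times (0.394 to 0.513). PDHX, which has another role than DLST, changed 0.528 times (0.483 to 0.578) relative to it. The DLAT fragment, of the same E2 role as DLST, went the other way and changed 4.16 times (2.88 to 6.16). Of the kinases, PDK4 was 57.2 times BCKDK in Yorkshire and 17.8 times in Shaziling, a change of 0.311 times (0.282 to 0.342). PDK3 and PDP1 were not paired with sister genes. Relative to CS, the citrate synthase that takes up the acetyl-CoA, the level of PDHB was 0.674 times in Yorkshire and 0.602 times in Shaziling (change 0.892, interval 0.839 to 0.948).

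**Figure D4:**
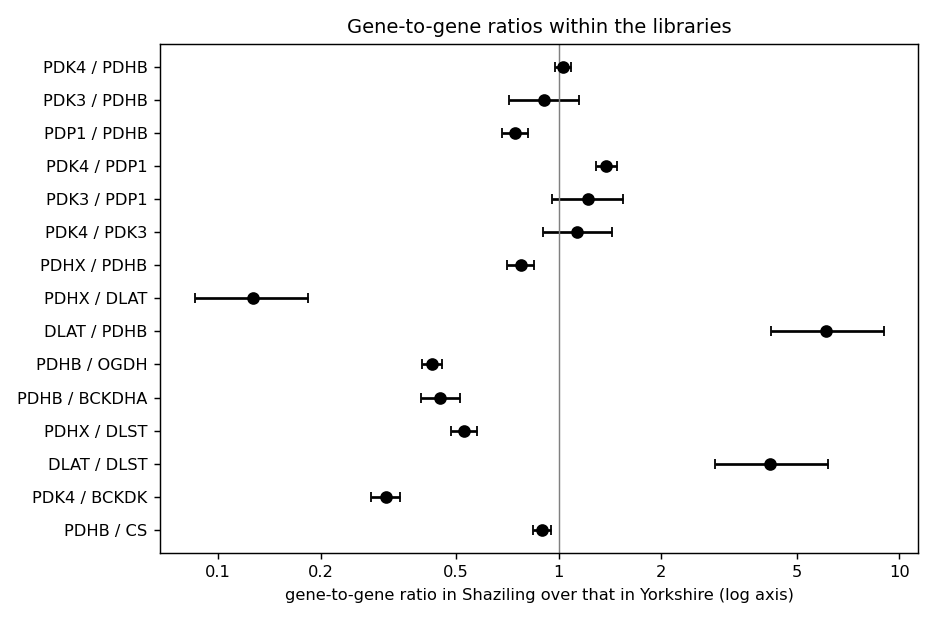
Ratio of the first gene to the second gene of each of 15 pairs, in the Shaziling library divided by that in the Yorkshire library (log axis), with exact 95% intervals on the reads as bars. PDK4 to PDHB lies at 1.03, PDP1 to PDHB at 0.745, and PDHB, PDHX and PDK4 over sister genes lie between 0.311 and 0.528, whereas DLAT to DLST lies at 4.16.

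The TCA cycle enzymes that follow PDC were mixed. A unigene was matched for 9 of the 17 genes listed. With the values as deposited, 2 were called higher in Shaziling (IDH3G, a subunit of the NAD-dependent isocitrate dehydrogenase, with a ratio of 2.43, and OGDH) and 0 higher in Yorkshire, against 39.1% and 4.04% of all gene symbols. For IDH2, the NADP-dependent enzyme, the RPKM was 77.8 and 143 (ratio 1.84, 95% interval 1.77 to 1.90). SDHB, the iron-sulfur subunit of succinate dehydrogenase, had the lowest ratio (0.559, interval 0.537 to 0.581) and was at 180 RPKM in Yorkshire against 101 in Shaziling. The median log2 ratio was 0.41. With equal RPKM sums, 0 of the 9 were called higher in Shaziling and 1 (SDHB) higher in Yorkshire, against 27.2% and 9.35% of all gene symbols.

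For the supply and other fates of pyruvate, 5 of 14 genes were tested. SLC16A1, the monocarboxylate transporter 1, had 17.1 and 16.1 RPKM in Yorkshire and Shaziling (ratio 0.942, 95% interval 0.879 to 1.01). MPC1, a subunit of the mitochondrial pyruvate carrier, had the lowest ratio, 0.824 (0.662 to 1.02). Both intervals included 1 with the values as deposited. Under each of the 4 other scalings both lay below 1, with equal RPKM sums at 0.652 to 0.748 for SLC16A1 and 0.491 to 0.759 for MPC1. The genes called were GPT, the alanine aminotransferase that converts pyruvate and alanine (1.26 and 4.99 RPKM, ratio 3.97, 3.10 to 5.14), and ME3, a mitochondrial malic enzyme (3.48 and 7.46 RPKM, ratio 2.14, 1.86 to 2.47), both higher in Shaziling. These were 2 of the 5 genes, where 39.1% of all gene symbols were called. With equal RPKM sums 1 of them (GPT) was called, where 27.2% of all gene symbols were. The median log2 ratio of the 5 genes was 0.83. GPT had 2 unigenes, and its values are those of the unigene with the higher mean RPKM.

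Fatty acid oxidation, the path used in place of glucose in fasting, was covered by 16 of 20 genes. Of these, 7 were called higher in Shaziling and 0 higher in Yorkshire with the values as deposited, and 2 and 0 with equal RPKM sums. Over all gene symbols the shares were 39.1% and 4.04% as deposited, and 27.2% and 9.35% with equal RPKM sums, so the count as deposited was near that of all genes. The median log2 ratio was 0.46. ACADS, the short-chain acyl-CoA dehydrogenase, had 443 reads in Yorkshire and 1510 in Shaziling and the highest ratio (4.09, 95% interval 3.67 to 4.56). ACSL1, which activates long-chain fatty acids, had 70.2 and 64.8 RPKM (ratio 0.923, 0.894 to 0.953). ETFA, which takes electrons from the acyl-CoA dehydrogenases, had 57.0 and 61.5 RPKM (ratio 1.08, 1.02 to 1.14). The direction of ETFA turned with the scaling, since its ratio was 0.800 (0.757 to 0.846) with equal RPKM sums. ACAA2, the mitochondrial thiolase, had the lowest ratio, 0.730 (0.683 to 0.780). ACSL1 and ETFA, the most abundant genes of the list, thus lay on either side of PDK4 in their ratios.

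Of 23 genes listed as fasting genes or as regulators of the PPAR and FOXO pathways known beside PDK4, 10 were tested, 3 were called higher in Shaziling and 0 higher in Yorkshire, and the median log2 ratio was 0.59. These counts stand against 39.1% and 4.04% of all gene symbols. KLF15, a transcription factor that glucocorticoids induce in muscle, had 16 reads in Yorkshire and 177 in Shaziling and a ratio of 13.3 (95% interval 7.95 to 23.7). KLF15 and CD36 each had 2 unigenes, and the values are those of the unigene with the higher mean RPKM. TRIM63, the muscle ubiquitin ligase MuRF1, had 52.1 and 92.1 RPKM (ratio 1.77, 1.68 to 1.87). CD36, a fatty acid transporter represented by a unigene of 336 bp, had 135 and 171 RPKM and a ratio of 1.26 (1.18 to 1.35). With equal RPKM sums the ratio of CD36 was 0.936, with an interval that included 1 (0.872 to 1.004). PPARA, a nuclear receptor that induces PDK4, had 144 and 88 reads and a ratio of 0.733 (0.556 to 0.962). The members of this list did not share a direction, and PDK4 lay between PPARA and CD36.

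**Figure D5:**
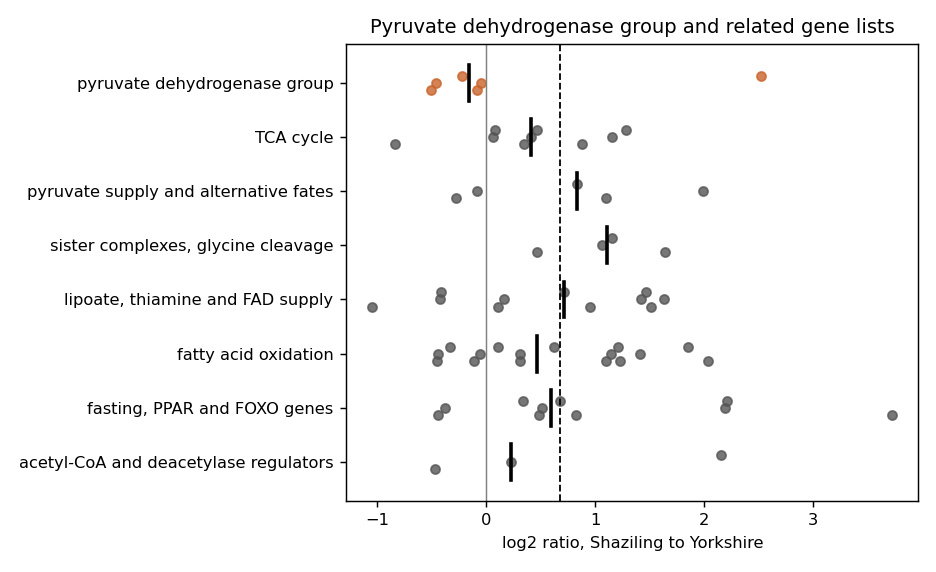
The log2 ratio of Shaziling to Yorkshire (values as deposited) of each gene tested in the pyruvate dehydrogenase group (orange) and in 7 related lists (grey), with the median of each list as a thick bar and the median of all gene symbols as a dashed line. The pyruvate dehydrogenase group has a median of -0.16, below the list medians, which lie between 0.23 and 1.11.

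The genes whose ratios were most like those of PDHX and PDP1 were sought among 877 gene symbols with a mean RPKM of 10 or more. With 2 libraries this likeness is only a difference between log2 ratios, and 44 gene symbols lay within 0.1 of PDHX and 39 within 0.1 of PDP1. The nearest to PDHX were DNAJC21 (34.7 and 25.3 RPKM in Yorkshire and Shaziling), FAM160B1 (11.98 and 8.70) and DIABLO (18.9 and 13.8). The nearest to PDP1 were UTP11 (23.1 and 16.1), PLN (55.2 and 38.9) and SH3GLB1 (57.7 and 40.6).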

How the data were processed

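RNA from the LM of 3 pigs of each breed was sequenced, and the table gives 1 column of values per breed, here called a library. The authors assembled the reads of both breeds with CLC Genomics Workbench and CAP3 and matched the unigenes to nr by BlastX. Tools without a stated role in the submitters' processing notes are CASAVA 1.8, TopHat2 2.0.6 and the mouse build mm10. The deposited read counts are whole numbers per unigene, not normalized, and their counter is not given in the sources used here. With Qualimap the authors also computed RPKM, the deposited normalized values. Dividing counts by RPKM and length gave library totals of 33949238 (Yorkshire) and 28305925 (Shaziling) reads for all unigenes. Of the columns with values of a sample, 0 were left out.

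Symbols came from pig RefSeq protein accessions of Sscrofa11.1, without their version (5698 of 65535 unigenes), and no coordinates were printed. The unigene of highest mean RPKM represented a gene. Protein lengths are the numbers after the nr accessions. Only names (the other PDK4 unigene and the mitochondrial unigenes) were taken from the list of DEGs of the study. Ratios compare RPKM without a pseudocount, with Clopper-Pearson intervals for ratios, exact Poisson intervals for levels and conditional odds ratios for pairs. Unigenes with 0 reads in a library were compared at 3 reads, which are an RPKM of 0.0884 (Yorkshire) and 0.106 (Shaziling) at 1 kb. Features that reached an RPKM of 1 in either library were tested and called at a ratio of 2. The calculations were tested on simulated data. Named genes are all members, the 2 most abundant genes and those of highest and lowest ratio (50 or more reads) of each list, and the 3 genes most like PDHX and PDP1. Members and lists were chosen with earlier results of these data known. Alternatives were other scalings (TMM by edgeR 4.0.16), folds, RPKM minimums, unigenes and a pseudocount of 1. The scalings by RPKM sum, median log2 ratio and TMM used only the unigenes in the table. R 4.3.3, scipy 1.17.1, numpy 2.4.6, matplotlib 3.10.9 and pandas 2.3.3 (in Python 3.11.15) were used.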

Additional observations from a re-analysis of the deposited data

How the results depend on the processing

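Of 287 values under alternatives, 204 stayed within the counting interval of the reported value, or within 1.5 times for a count, and 83 moved. The class medians were judged by the interval of PDHB or PDK3, and their difference by that of PDK3 relative to PDHB. Some of the 204 could not move. Scaling cannot change the difference between the classes, and adding the other PDK4 unigene cannot change the ratios of other genes. No member's ratio changed direction under an alternative that was run. The other scalings all lowered the ratios, so among them only the ratio of DLAT could have done so. With 1 column of values per breed no replicate could be left out, and edgeR and DESeq2 tests and the sampling test of DEGseq were not run. No paired analysis was possible because each breed has 1 column of values. The 36 Yorkshire reads of DLAT and the 131 Shaziling reads of PDK3 limit those ratios most. Each member has 1 unigene, so the choice of the longest or of pooled unigenes left the members' values as they were, and the table has no protein descriptions, so only the PDK4 unigene named in the list of DEGs could be added.

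Rescaled to the same RPKM sum, to a median log2 ratio of 0 and by TMM, respectively, the ratios were 0.698, 0.737 and 0.694 for PDHB, 0.540, 0.570 and 0.537 for PDHX, 0.633, 0.668 and 0.630 for PDK3, 0.718, 0.758 and 0.714 for PDK4, and 0.520, 0.549 and 0.517 for PDP1. The median log2 ratio of the subunits was -0.52, -0.44 and -0.53 and that of the regulators -0.66, -0.58 and -0.67. Under each of these 3 scalings the TCA cycle list had 0 genes called higher in Shaziling and 1 higher in Yorkshire, the pyruvate list 1 and the sister complexes 1 higher in Shaziling, and fatty acid oxidation 2, 3 and 2. The gene symbols called higher in Yorkshire were 9.35%, 8.21% and 9.50%. The log2 shift was -0.43, -0.35 and -0.44.

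With library totals without the mitochondrial unigenes (a shift of -0.72), the ratios were 0.572 for PDHB, 3.48 for DLAT, 0.442 for PDHX, 0.519 for PDK3, 0.588 for PDK4 and 0.426 for PDP1, so 2 members were called higher in Yorkshire. The subunit median was -0.81 and the regulator median -0.95. Called higher in Shaziling and in Yorkshire, respectively, were 0 and 1 TCA cycle genes, 0 and 3 lipoate, thiamine and FAD genes, 2 and 3 fatty acid oxidation genes, 24.5% and 27.3% of unigenes, and 21.0% and 16.5% of gene symbols. The pyruvate list had 1 and the sister complexes 0 called higher in Shaziling, and the fasting list had 2 and the acetyl-CoA list 1 called higher in Yorkshire.

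With the other PDK4 unigene added, the PDK4 ratio was 0.915 and its change relative to PDHB 0.972, below 1 where the reported value is 1.03. Without unigenes under 300 bp the subunit median was -0.27, and the median of the regulators minus that of the subunits was 0.04 in place of -0.14. At an RPKM of 10 or more, the pyruvate list had 0, the lipoate list 1, the fasting list 1 and the acetyl-CoA list 0 genes called higher in Shaziling, and 7.18% of unigenes were called higher in Yorkshire. With the longest unigene the acetyl-CoA list had 2. At a fold of 1.5, 1 TCA cycle gene and 9.11% of gene symbols were higher in Yorkshire and 5 fasting genes higher in Shaziling. At a fold of 3, those higher in Shaziling were 0 TCA cycle, 1 pyruvate, 1 sister complex, 1 lipoate and 2 fatty acid oxidation genes and 23.5% of gene symbols, and those higher in Yorkshire were 0 lipoate genes, 8.97% of unigenes and 1.32% of gene symbols.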

Other observations

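PDC needs lipoate and thiamine diphosphate, and the enzymes and carriers that supply its cofactors differed among themselves. Of 21 genes listed, 11 were tested, 4 were called higher in Shaziling and 1 higher in Yorkshire, and the median log2 ratio was 0.72. Over all gene symbols 39.1% and 4.04% were called. BOLA3, which helps to load iron-sulfur clusters on lipoate synthase, had 1939 reads in Yorkshire (109 RPKM) and 782 in Shaziling (52.9 RPKM), and its ratio was 0.484 (95% interval 0.445 to 0.526), the lowest of the list. ISCA1, another iron-sulfur cluster protein, had 22.6 and 37.2 RPKM in the same order (ratio 1.64, 1.55 to 1.75). MCAT, of mitochondrial fatty acid synthesis, which makes the lipoate precursor, had the highest ratio (3.11, 1.87 to 5.34) on 22 and 57 reads.

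Of 10 genes of acetyl-CoA handling and deacetylation, 3 were tested. ACAT1, the acetoacetyl-CoA thiolase, had 67.4 RPKM in Yorkshire against 78.8 in Shaziling (ratio 1.17, 95% interval 1.12 to 1.23). The direction of ACAT1 turned with the scaling, since its ratio was 0.868 (0.828 to 0.909) with equal RPKM sums. ACSS1, which makes acetyl-CoA from acetate in mitochondria and so without PDC, had 78 and 290 reads (ratio 4.46, 3.46 to 5.80). SIRT3, the mitochondrial deacetylase, named after its values were seen, had 30 and 18 reads. The interval of its ratio (0.378 to 1.33) included 1 with the values as deposited, but with equal RPKM sums it lay below 1 (0.280 to 0.989). SIRT3 had 3 unigenes, and this one, of the highest mean RPKM, had 451 bp. With its longest unigene instead, SIRT3 was called higher in Shaziling, so its direction depended on the unigene. The list had a median log2 ratio of 0.23, with 1 of the 3 genes called higher in Shaziling and 0 higher in Yorkshire, against 39.1% and 4.04% of all gene symbols.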
